A study of Macaca mulatta with 12 samples.

Results

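Macrophages of rhesus macaques (Macaca mulatta) stimulated with lipopolysaccharide (LPS) and interferon-gamma were compared between 19 months (late) and 4.5 months (early) after transplant. The comparison takes, by their titles, the 3 stimulated libraries of each time, 6 of the 12 libraries in all. All 4 groups of 3 libraries come from animals transplanted with autologous CD34+ cells that had undergone CRISPR/Cas9 editing. Blood formation in them was TET2-mutant, by the title of the study. No unedited control enters the comparison, and the labels give neither the number of animals nor their age nor the share of edited cells. Blood cells sorted as CD14+CD16-CD163+ were plated at 250000 per well and kept for 8 h with LPS at 100 ng/ml and interferon-gamma at 20 ng/ml (ACT) or without them (CTL). Only LPS stands in the treatment label, and the protocol adds interferon-gamma. No label says that the replicates are separate animals or wells, so p-values measure only the spread between libraries, which may be technical.

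LPS, a component of the outer wall of Gram-negative bacteria, is bound by CD14 and signals through TLR4. One arm, through the adaptor MYD88, activates NF-kB and the genes of IL-1 beta, TNF and IL-6, and the other, through TICAM1, leads to interferon beta. Interferons act through JAK kinases and STAT factors to switch on a large antiviral program, and interferon-gamma primes macrophages for antigen presentation and microbial killing. TET2 is an enzyme that oxidizes methylated cytosine in DNA and is often mutated in clonal hematopoiesis, in which the progeny of single stem cells make up a large share of the blood.

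The 6 libraries held from 4602109 to 12972505 counts, and Early ACT 1 had the fewest. This library stood apart from the other early ones. Between it and Early ACT 2 or 3 the median gap over genes was 0.38 on the log2 scale, against 0.09 between Early ACT 2 and 3 and 0.11 to 0.15 between late libraries. At a common depth of 4602109 counts, 13883 to 14261 genes had a count in early and 18929 to 19123 in late stimulated libraries. Genes under 1 CPM (counts scaled to a common library total) in both stimulated groups summed to 1102 to 1151 CPM early and 3322 to 3541 CPM late, and 11 genes of the mitochondrial genome to 5234 to 5708 and 6427 to 7249 CPM. The part of these differences in the changes below was not tested. The text therefore turns on genes with a mean of 10 CPM or more in one of the groups, and CPM here are scaled by TMM factors. No label gives a library date, and the time after transplant cannot be told apart from a batch that followed it.

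Many well-expressed genes differed between the times, and more of them were lower than higher at 19 months. Of the 6587 genes at 10 CPM or more, 3116 passed at an adjusted p of 0.05 (47.3%; edgeR's quasi-likelihood test, Benjamini-Hochberg, the source of every adjusted p below). Of these 1075 were higher (16.3%) and 2041 lower (31%) late, 160 and 482 of them by a fold of 2 or more. The groups' libraries did not overlap in 3036 of the 3116, against 59.1% of all 6587 genes. Over the whole table, 4589 of 11826 genes passed (38.8%), 2263 higher (19.1%) and 2326 lower (19.7%). The lean grew with the level: between 1 and 10 CPM 22.8% of genes were higher and 5.59% lower, between 100 and 1000 CPM 15% and 40.9%, and above 1000 CPM 10.6% and 49.4%. It also moved with the scaling. The share of higher genes among those called at 10 CPM or more was 34.5%, and it was 48.5% with upper-quartile factors and 49.1% with TMM factors from well-expressed genes. These factors shifted the median log2 fold change of well-expressed genes from -0.10 by 0.10 and 0.11, so each list below is read against that median. List counts are likewise read against the 16.3% higher and 31% lower of all genes at 10 CPM or more. These shares are not matched to the level of a list's members. The part of level in the list counts was not tested.

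**Figure D1:**
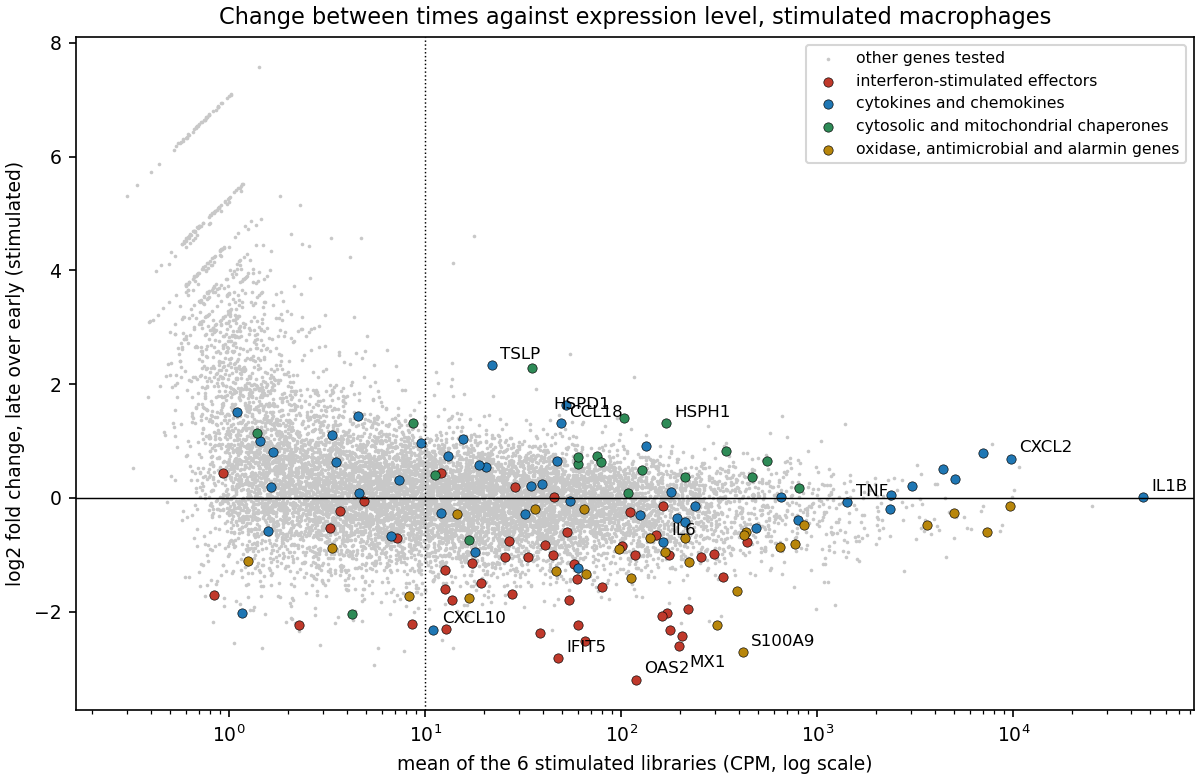
Log2 fold change of late over early stimulated libraries (y axis) against the mean CPM of the 6 libraries (x axis, log scale), 1 point a gene, with members of the lists coloured (those named only by the authors included) and a dotted line at 10 CPM. Interferon-stimulated effectors lie below 0 down to OAS2 at -3.20, chaperones lie mostly above it, and IL1B and TNF lie at 0.01 and -0.08 at high levels.

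Interferon-stimulated antiviral genes were the list that stood lowest at 19 months. Of 62 listed genes 48 could be named, and 40 of them reached 10 CPM. Of these 35 were lower and none higher late, against 31% lower and 16.3% higher among all genes at that level, and their median log2 fold change was -1.22 against -0.10. The count ran from 35 to 36 over 14 alternative settings. OAS2, which makes the messenger that activates RNase L on sensing double-stranded RNA, was at 203, 230 and 210 CPM in Early ACT 1, 2 and 3 and at 21.2, 18.6 and 29.9 CPM in Late ACT 1, 2 and 3. All late libraries lay far below all early ones, and the fold change was 9.18 (log2 -3.20 ± 0.15 SE, adjusted p = 8.78e-14). By the authors' deposited table OAS2 spans bases 113012695 to 113045940 of chromosome 11 (build Mmul_8.0.1).

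MX1, a GTPase that traps viral nucleoproteins, stood at 347, 334 and 330 CPM early and 56.8, 52.2 and 56.9 CPM late. The early libraries agreed closely here, Early ACT 1 included, and no library overlapped with the other group (log2 -2.61 ± 0.11, adjusted p = 3.2e-14). IFIT5, which binds viral RNA, went from 78.5, 87.4 and 84.8 to 14.1, 10.0 and 11.7 CPM, again without overlap (log2 -2.81 ± 0.16, adjusted p = 1.18e-12). Among further effectors OAS3 fell by 2.51, IFI6 by 2.38, OASL by 2.32, IFIT1 by 2.30, CMPK2 by 2.24, MX2 by 2.08 and PML by 2.02 on the log2 scale. IFIT2, whose name comes only from the authors' deposited table and which is therefore outside the count, fell by 2.43 in the fit here. Smaller falls were those of GBP3, a guanylate-binding GTPase induced by interferon-gamma (-0.78 ± 0.11, adjusted p = 6.63e-06), and TRIM22 (-0.65 ± 0.12, adjusted p = 0.000117). The 5 well-expressed members that did not pass were IFI44 (0.44), DDX60 (0.19), NMI (0.02), DDX60L (-0.14) and TRIM14 (-0.25), named here after their values were seen. The value of TRIM14 is uncertain, since the authors' deposited table gives that name to a different row of the counts, at -2.65 ± 0.30 (SE, adjusted p = 3.62e-16 in that table). DDX60L passed without Early ACT 1 (-0.32, adjusted p = 0.00309).

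Sensors of nucleic acids were lower in 9 and higher in 1 of 14 well-expressed members, with a median of -0.63. STING1, the adaptor of the cytosolic DNA sensor cGAS, was at 235, 175 and 183 CPM early and 58.2, 56.7 and 60.5 CPM late. Its late libraries lay close together and below every early one (log2 -1.75 ± 0.14, adjusted p = 5.43e-10). UNC93B1, which carries Toll-like receptors to the endosome, fell by 1.56, the RNA helicase DHX58 by 1.44, IFI16 by 1.13, the RNA editor ADAR by 1.09 and the RNA sensor RIGI by 0.72 on the log2 scale. DHX36, a helicase, rose (0.65 ± 0.17, adjusted p = 0.00335). AIM2, the DNA sensor that opens an inflammasome, was at 0.03 ± 0.15 (adjusted p = 0.875). The kinase TBK1, which STING1 activates, was at -0.08 ± 0.17 (adjusted p = 0.761) and passed without Early ACT 1 (-0.34, adjusted p = 0.00585), its lowest library.

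Among interferon receptors, kinases, STATs and IRFs, 14 of 21 well-expressed members were lower and 2 higher, with a median of -0.57. The receptor chains did not pass: IFNAR1 was at -0.01 ± 0.18, IFNAR2 at -0.06 ± 0.11 and IFNGR2 at -0.25 ± 0.11. IFNGR2 passed as lower without Early ACT 2 (adjusted p = 0.0393) or Early ACT 3 (adjusted p = 0.0355). JAK1 was at 1802, 2089 and 2056 CPM early and 2084, 1991 and 2044 CPM late, with overlapping groups (log2 0.04 ± 0.10, adjusted p = 0.789). Several transcription factors below the kinases were lower. STAT2 was at 73.1, 57.8 and 56.9 CPM early and 26.6, 22.1 and 22.4 CPM late, without overlap (log2 -1.39 ± 0.16, adjusted p = 2.15e-07). IRF5 fell by 1.20, IRF1 by 0.77 and IRF8 by 0.73 on the log2 scale. IRF7, the main driver of interferon alpha genes, was low, at 8.89, 6.78 and 6.38 CPM early and 2.08, 2.86 and 2.16 CPM late (log2 -1.60 ± 0.34, adjusted p = 0.000585). SOCS1, a brake on JAK kinases, fell as well (-0.70 ± 0.15, adjusted p = 0.000855). The 2 that rose were JAK2 (0.49 ± 0.16, adjusted p = 0.0154) and IRF4 (0.50 ± 0.20, adjusted p = 0.0444). JAK2 did not pass without Late ACT 1 (adjusted p = 0.0803), and IRF4 did not pass when any of the 6 libraries was left out (adjusted p from 0.0722 without Late ACT 1 to 0.134 without Late ACT 2).

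Antigen presentation genes were lower in part. Of 12 well-expressed members of the MHC class I peptide list 5 were lower and 2 higher (median -0.22), against 31% and 16.3% of all genes at that level. The changes were steepest in the inducible proteasome. PSMB8, a catalytic subunit of the immunoproteasome, was at 99.0, 73.3 and 72.2 CPM early and 26.8, 27.97 and 24.1 CPM late (log2 -1.62 ± 0.14, adjusted p = 4.14e-09), and Early ACT 1 was its highest library. PSMB9, another such subunit, fell by 1.71 and NLRC5, the activator of MHC class I genes, by 1.40 on the log2 scale. The chaperone CANX rose (0.34 ± 0.12, adjusted p = 0.028), but not without Late ACT 1, 2 or 3 (adjusted p = 0.133, 0.0539 and 0.0678). In the MHC class II list 7 of 9 were lower and 1 higher (median -0.41). With upper-quartile factors 3 were lower. CD74, the invariant chain, was at -0.57 ± 0.13 (adjusted p = 0.00135), HLA-DRA at -0.38 ± 0.13 (adjusted p = 0.0199, and 0.0543 without Late ACT 2), and CIITA, the master activator of these genes, at -0.14 ± 0.24 (adjusted p = 0.683). The protease LGMN was the member that rose (0.46 ± 0.12, adjusted p = 0.00305).

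On the LPS pathway, the adaptor MYD88 was lower late, while the receptor TLR4 did not pass. TLR4 was at 807, 1040 and 1000 CPM early and 874, 781 and 815 CPM late, and the groups overlapped (log2 -0.21 ± 0.11, adjusted p = 0.15). Without Early ACT 1, which lay among the late libraries, it passed (-0.32, adjusted p = 0.000617). MYD88, which links the receptor to the IRAK kinases, was at 415, 300 and 316 CPM early and 102, 102 and 100 CPM late. The late libraries were nearly equal and all lay far below the early ones (log2 -1.76 ± 0.13, adjusted p = 1.32e-10). CD14 itself, the LPS co-receptor and a sort marker, fell by 0.82, the adaptor TICAM1 by 0.96 and the kinase IRAK1 by 1.04 on the log2 scale. TLR5, the flagellin receptor, rose by 0.69 ± 0.15 (adjusted p = 0.000701) and TLR1 by 1.11 ± 0.21 (adjusted p = 0.000185). Over the Toll-like receptor list 7 of 16 well-expressed members were lower and 2 higher, with a median of -0.27.

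The NF-kB list had 14 of 24 members lower and 2 higher, with a median of -0.52. Its most abundant subunit gene, NFKB1, was at 3048, 2985 and 2956 CPM early and 2587, 2714 and 2744 CPM late and did not pass (log2 -0.16 ± 0.10, adjusted p = 0.209). RELB fell by 1.07, NFKB2 by 0.62 and RELA by 0.50 on the log2 scale, while REL rose (0.43 ± 0.17, adjusted p = 0.0459), though not without Early ACT 1 (0.18, adjusted p = 0.161) nor without Late ACT 1, 2 or 3 (adjusted p = 0.107, 0.0899 and 0.131). The inhibitors of the pathway, themselves NF-kB targets, were mostly lower: NFKBIA, which holds NF-kB in the cytosol, was at 12011, 9333 and 9482 CPM early and 6655, 6902 and 6963 CPM late (log2 -0.59 ± 0.11, adjusted p = 0.000225). TNFAIP3, the deubiquitinase A20, fell by 0.56, and its binding partners TNIP1 and TNIP2 by 0.93 and 1.36 on the log2 scale. CYLD, another deubiquitinase that limits the pathway, rose (0.41 ± 0.12, adjusted p = 0.00905).

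IL1B and TNF, the best known inflammatory cytokine genes, did not pass, and IL6 was lower late. IL1B was at 51467, 42400 and 42938 CPM early and 47554, 44098 and 46138 CPM late. These ranges overlapped, with Early ACT 1 the highest, and the log2 fold change was 0.01 ± 0.11 (adjusted p = 0.949; 95% interval -0.21 to 0.23). TNF, at 1841, 1257 and 1292 CPM early and 1329, 1378 and 1444 CPM late, was likewise at -0.08 ± 0.13 (adjusted p = 0.651; 95% interval -0.34 to 0.18). IL6 was lower in every late library, at 132, 108 and 121 CPM against 198, 202 and 214 CPM early (log2 -0.77 ± 0.12, adjusted p = 1.38e-05). IL10, the anti-inflammatory cytokine (0.25 ± 0.14, adjusted p = 0.165), and IL1RN, the natural antagonist of IL-1 (0.10 ± 0.11, adjusted p = 0.505), did not pass. IL1A, named only in the authors' table, rose by 0.51 ± 0.12 (adjusted p = 0.00145).

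Other cytokines moved either way. The granulocyte factor CSF3 was at 736, 1014 and 964 CPM early and 699, 684 and 688 CPM late, with no overlap though Early ACT 1 came near the late level (log2 -0.39 ± 0.12, adjusted p = 0.00967). It did not pass with upper-quartile factors (adjusted p = 0.0506), with factors or a fit from genes at 10 CPM or more (0.0599 and 0.0508), or in a fit of the 6 stimulated libraries alone (0.0567). OSM, an IL-6 family cytokine, fell by 1.24 and TGFB1 by 0.53 on the log2 scale, while LIF of the same family as OSM rose by 0.65 ± 0.15 (adjusted p = 0.00106), IL15 by 0.57 ± 0.19 (adjusted p = 0.022) and IL12A by 0.96 ± 0.27 (adjusted p = 0.00704). IL15 did not pass without Early ACT 1 or 2 or without Late ACT 1 or 3 (adjusted p = 0.0677, 0.0512, 0.0669 and 0.0963), and IL12A did not without Late ACT 1 (adjusted p = 0.0752). TSLP, a cytokine best known from epithelia and named only in the authors' table, was at 2.22, 8.38 and 9.28 CPM early and 45.6, 31.5 and 34.1 CPM late. The late libraries were several times the highest early one (log2 2.34 ± 0.25, adjusted p = 1.12e-07). Over 18 well-expressed cytokines and growth factors 5 were higher and 6 lower (median -0.07), and 7 were higher and 3 lower with upper-quartile factors.

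Chemokine genes moved both ways. CXCL10, a target of interferon-gamma that attracts T cells, was at 14.3, 19.3 and 21.3 CPM early and 2.47, 4.94 and 3.78 CPM late (log2 -2.32 ± 0.26, adjusted p = 2.07e-07). CCL2, which attracts monocytes, was higher in all late libraries, at 191, 171 and 163 CPM against 75.3, 104 and 97.9 CPM (log2 0.91 ± 0.13, adjusted p = 7.33e-06). CCL18 rose by 1.32 ± 0.14 (adjusted p = 8.92e-08), and CCL20, at 592, 669 and 682 CPM early and 694, 666 and 596 CPM late, was at 0.01 ± 0.11 (adjusted p = 0.959). Neutrophil attractants named only in the authors' table were CXCL2, at 5273, 8338 and 8744 CPM early and 12772, 11674 and 11641 CPM late (log2 0.69 ± 0.13, adjusted p = 0.000237), CXCL3 (0.33 ± 0.11, adjusted p = 0.0231) and CXCL1 (-0.20 ± 0.12, adjusted p = 0.209). Without Early ACT 1 CXCL1 passed as lower (-0.37, adjusted p = 2.65e-05), and CXCL3 did not pass without Late ACT 1 or 3 (adjusted p = 0.142 and 0.0527). These are close paralogs, and reads shared among them make the split between them uncertain. Of 7 named, well-expressed chemokines 3 were higher and 2 lower.

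**Figure D2:**
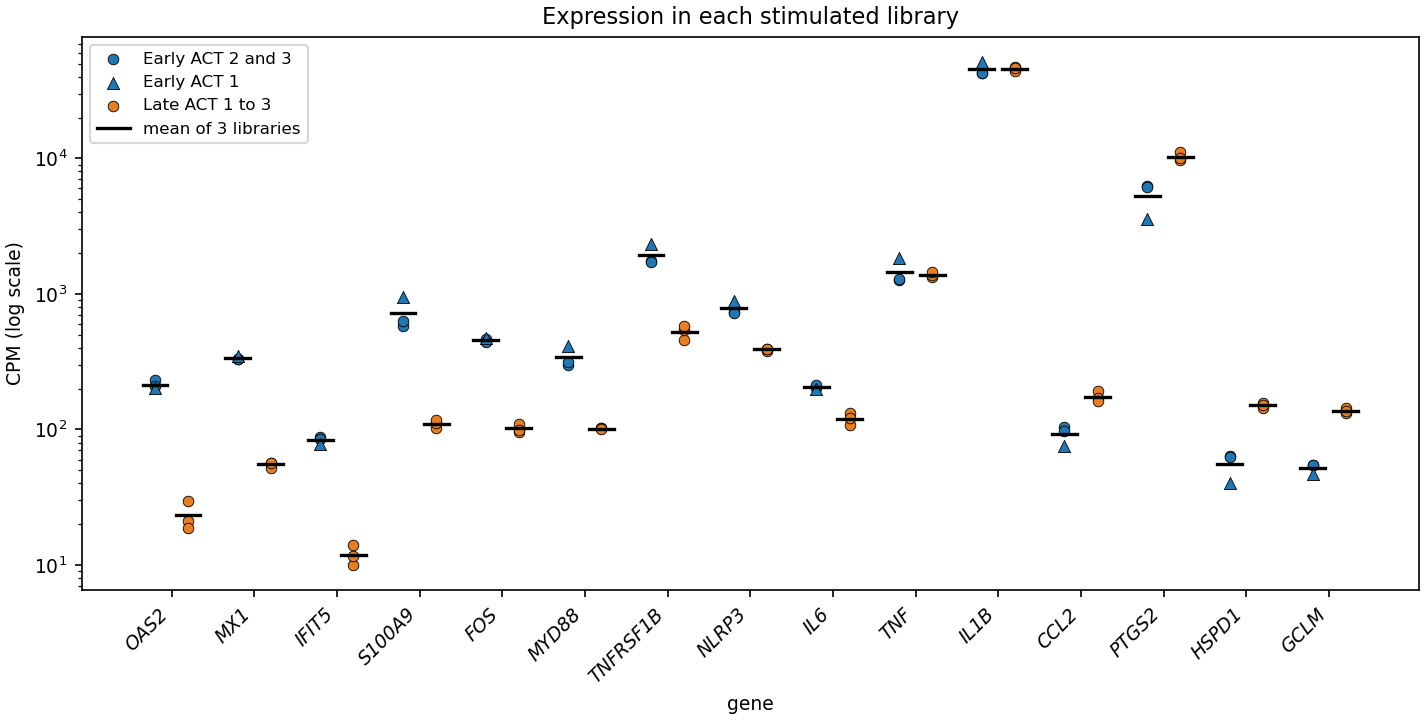
CPM (log scale) of 15 genes in each stimulated library, with early libraries in blue (a triangle for Early ACT 1), late libraries in orange and a bar at the mean of 3. OAS2, MX1, IFIT5 and S100A9 part by several fold, IL1B and TNF overlap, and CCL2, PTGS2, HSPD1 and GCLM are higher in every late library.

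Of 26 well-expressed inflammasome, necroptosis and apoptosis genes 9 were lower and 2 higher (median -0.26), a share of lower genes close to the 31% of all genes at that level. NLRP3, the sensor whose assembly matures IL-1 beta, was at 879, 737 and 727 CPM early and 382, 395 and 395 CPM late, without overlap (log2 -0.999 ± 0.11, adjusted p = 1.22e-07). GSDMD, the pore through which IL-1 beta leaves the cell, went from 44.0, 34.98 and 35.8 to 12.5, 18.1 and 16.4 CPM (log2 -1.27 ± 0.16, adjusted p = 1.52e-06). CASP1, the protease that cleaves both proteins, fell by 0.50 and CASP4 by 0.35 on the log2 scale, the latter not without Late ACT 2 or 3 (adjusted p = 0.0685 each). The adaptor PYCARD, named only in the authors' table, fell by 1.18. The pyrin gene MEFV (-0.30 ± 0.15, adjusted p = 0.121) and NEK7, the partner of NLRP3 (0.29 ± 0.16, adjusted p = 0.165), did not pass.

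Cell-surface receptors of macrophages were lower in several lists. Of 30 cytokine and chemoattractant receptors 16 were lower and none higher (median -0.40), and 2 were higher with upper-quartile factors. TNFRSF1B, the second TNF receptor, was at 2326, 1742 and 1716 CPM early and 455, 541 and 577 CPM late (log2 -1.88 ± 0.13, adjusted p = 3.68e-11). The complement receptor C5AR1 fell by 1.33, the growth factor receptors CSF1R and CSF3R by 1.23 and 1.01, and the other TNF receptor gene TNFRSF1A by 1.02 on the log2 scale. IL6R (-0.08 ± 0.13) did not pass, nor did IL7R (-0.07 ± 0.14) and IL1R1 (-0.07 ± 0.15), which passed as lower without Early ACT 1 (-0.27, adjusted p = 0.00634, and -0.31, adjusted p = 0.00207).

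Scavenger, Fc, complement and lectin receptors were lower in 23 and higher in 1 of 35 members, with a median of -0.85. CD163, the hemoglobin scavenger receptor by which the cells were sorted, was at 1518, 1224 and 1188 CPM early and 506, 555 and 571 CPM late (log2 -1.27 ± 0.11, adjusted p = 5.39e-09). The integrin chains of complement receptor 3, ITGB2 and ITGAM, fell by 1.35 and 1.15, the inhibitory receptor LILRB4 by 1.37 and TREM1, an amplifier of Toll-like receptor signals, by 0.95 on the log2 scale. The exception was CLEC7A, the beta-glucan receptor (0.63 ± 0.16, adjusted p = 0.00304). OLR1, a receptor of oxidized lipoproteins at 1055 to 1586 CPM, was at 0.11 ± 0.12 (adjusted p = 0.505).

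Oxidase, antimicrobial and alarmin genes were lower in 17 of 21 members with none higher (median -0.86; 16 to 18 lower over the alternatives). S100A9, which with S100A8 forms calprotectin, was at 955, 582 and 633 CPM early and 103, 111 and 117 CPM late. Early ACT 1 was the highest library, and without it the log2 fold change was -2.48 in place of -2.71 ± 0.16 (adjusted p = 3.84e-12). S100A8 fell by 2.24, the metal transporter SLC11A1 by 1.64, and the oxidase subunits NCF1, NCF4 and CYBB by 1.40, 1.33 and 0.60 on the log2 scale. IDO1, the tryptophan-degrading enzyme that interferon-gamma induces strongly, was at 6489, 4903 and 4920 CPM early and 4658, 4390 and 4442 CPM late and did not pass (-0.27 ± 0.11, adjusted p = 0.061), though it passed without Early ACT 2 or 3 (adjusted p = 0.0251 and 0.0248). ACOD1, the itaconate synthase, named only in the authors' table, was at 9051, 8725 and 8853 CPM early and 5994, 5711 and 5872 CPM late (-0.60 ± 0.10, adjusted p = 5.96e-05).

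Markers of CD14 monocytes, among them CD14, CD163, S100A8, S100A9, VCAN and CSF3R, were mostly lower as well. CD14, CD163, S100A8, S100A9 and CSF3R were already named above, so the fall of these markers is not separate from those results. Of 13 listed genes 12 were named and none was under 1 CPM. Their sum ranged over 11111 to 11459 CPM early and 6115 to 6349 CPM late. Of 12 tested 9 were lower and 0 higher, and the rest did not pass. Marker counts here are over genes tested at any level, of which 19.1% were higher and 19.7% lower in the whole table. In such bulk samples fewer cells of a type and less RNA per cell cannot be told apart. Neutrophil markers (11 named, ELANE under 1 CPM) summed to 716 to 811 CPM early and 343 to 416 CPM late. They include CSF3R, which is also a CD14 monocyte marker here, and of 9 tested 5 were lower and 0 higher. Markers of tissue macrophages (9 named, C1QC, FOLR2 and LYVE1 under 1 CPM) summed to 210 to 269 and 152 to 179 CPM, though 2 of 5 tested were higher and 1 lower. Those of CD16 monocytes (6 named) summed to 103 to 104 and 80.2 to 106 CPM. T cell markers summed to 258 to 394 CPM early and 319 to 343 CPM late with CD3E, CD3G, CD247, TRAT1 and CD8A under 1 CPM, and B cell markers to 12.1 to 14.6 and 11.3 to 14.7 CPM with PAX5 among those under 1 CPM. Platelet marker sums were 424 to 575 and 335 to 348 CPM with GP9 and GP1BA under 1 CPM. The part of these marker changes in the other results was not tested.

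Transcription factors of the early response were lower, with 14 of 23 well-expressed members lower, none higher and a median of -0.62. Over the alternatives 13 to 16 were lower and at most 1 higher. FOS, a subunit of AP-1, was at 470, 463 and 445 CPM early and 96.6, 109 and 99.5 CPM late. The early libraries were close to each other and far above the late ones (log2 -2.17 ± 0.11, adjusted p = 5.72e-13). NR4A1 fell by 1.05, JUNB by 0.88, KLF6 by 0.76 and KLF10 by 0.71 on the log2 scale, whereas MYC (-0.02 ± 0.12, adjusted p = 0.905), MAFF (-0.04 ± 0.10, adjusted p = 0.8) and FOSL1 (-0.15 ± 0.11, adjusted p = 0.276) did not pass. FOSL1 passed without Early ACT 1 (-0.21, adjusted p = 0.032). Of 29 lineage factors 7 were higher and 12 lower, against 16.3% and 31% of all genes at 10 CPM or more. With upper-quartile factors 7 were higher and 8 lower. SPI1, the master factor of myeloid cells, was at 300, 323 and 284 CPM early and 141, 155 and 163 CPM late (log2 -0.98 ± 0.11, adjusted p = 2.5e-07). RUNX2, a runt-domain factor, rose by 0.58 ± 0.12 (adjusted p = 0.000524), ETS1 by 0.99 ± 0.22 (adjusted p = 0.000908) and RUNX1 was at -0.05 ± 0.11 (adjusted p = 0.732).

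Cytosolic and mitochondrial chaperones were the list that stood highest. Of 16 well-expressed members 12 were higher and 1 lower, against 16.3% and 31% of all genes, and the median was 0.62 (11 to 13 higher over the alternatives). HSPD1, the mitochondrial chaperonin, was at 40.3, 64.0 and 63.0 CPM early and 156, 144 and 152 CPM late. Early ACT 1 was the lowest library, and without it the log2 fold change was 1.23 in place of 1.41 ± 0.14 (adjusted p = 3.82e-08). HSPH1, a nucleotide exchange factor for Hsp70, was at 77.3, 107 and 105 CPM early and 255, 229 and 237 CPM late (log2 1.31 ± 0.13, adjusted p = 2.15e-08). DNAJA1 rose by 0.82, CHORDC1 by 0.74, HSPA8 by 0.64 and STIP1 by 0.50 on the log2 scale. HSPA4L, an Hsp70 relative outside the list, rose by 2.38 ± 0.26 (adjusted p = 1.19e-07), from 1.98, 5.34 and 5.02 CPM early to 27.1, 20.7 and 22.4 CPM late. HSF1, the transcription factor of the heat shock response, was the member that fell (-0.75 ± 0.21, adjusted p = 0.00566). The chaperones of the endoplasmic reticulum did not share the rise, with 4 of 17 higher and 4 lower, and HSPA5, their most studied member, was at -0.09 ± 0.10 (adjusted p = 0.521).

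Over the antioxidant, iron and metal list 5 of 24 well-expressed genes were higher and 9 lower (median -0.20). GCLM, a subunit of the rate-limiting enzyme of glutathione synthesis, was at 46.9, 54.5 and 54.5 CPM early and 144, 133 and 138 CPM late (log2 1.40 ± 0.12, adjusted p = 4.13e-09). The cystine transporter SLC7A11 was at 395, 477 and 479 CPM early and 955, 945 and 953 CPM late (log2 1.08 ± 0.12, adjusted p = 2.5e-07). NQO1 rose by 1.79, SRXN1 by 1.00 and NFE2L2, which encodes the NRF2 factor that controls such genes, by 0.51 ± 0.12 (adjusted p = 0.00171). HMOX1, the heme-degrading enzyme, fell by 1.06 and FTH1, the ferritin heavy chain at 5500 to 7466 CPM early and 3724 to 3815 CPM late, by 0.71 on the log2 scale.

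Targets of the integrated stress response, the program of amino acid supply and transfer RNA charging set off by ATF4, were lower in 11 and higher in 3 of 25 members (median -0.22). The lower count ran from 7 to 12 over the alternatives. TRIB3, a pseudokinase, was at 138, 121 and 117 CPM early and 40.2, 52.2 and 44.9 CPM late (log2 -1.45 ± 0.14, adjusted p = 2.42e-08). SESN2 fell by 0.56, CHAC1 by 0.51 and PPP1R15A, which ends the response, by 0.39 on the log2 scale. ASNS, asparagine synthetase, was at 27.4, 48.3 and 40.7 CPM early and 53.0, 44.1 and 44.2 CPM late, with Early ACT 1 far below the other 5 libraries, and did not pass (0.25 ± 0.17, adjusted p = 0.262).

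Among genes of glucose use 19 of 26 members were lower and 1 higher, with a median of -0.78. GAPDH was at 2670, 1913 and 1899 CPM early and 982, 1058 and 1029 CPM late (log2 -1.08 ± 0.13, adjusted p = 3.88e-07). LDHA, which makes lactate, was at 1069, 1164 and 1164 CPM early and 687, 625 and 601 CPM late (log2 -0.83 ± 0.10, adjusted p = 1.25e-06). PFKL fell by 1.30, HK3 by 1.24, PGK1 by 1.02 and the lactate exporter SLC16A3 by 0.90 on the log2 scale. Nuclear-encoded respiratory chain and tricarboxylic acid cycle genes had 19 of 40 members lower and 2 higher (median -0.46), with the complex I subunit NDUFS7 at -1.34, MDH2 at -1.23 and UQCRC1 at -1.06, while FH rose (0.43 ± 0.12, adjusted p = 0.00629). Genes encoded by mitochondrial DNA carry names only in the authors' table, and MT-CO1 was higher late (0.63 ± 0.14, adjusted p = 0.00113).

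Among lysosomal genes 29 of 47 members were lower and 4 higher (median -0.35), and 20 were lower with upper-quartile factors. CTSB, a cysteine protease, was at 3064, 2841 and 2769 CPM early and 1785, 1801 and 1844 CPM late (log2 -0.68 ± 0.10, adjusted p = 1.11e-05). The proton pump subunit ATP6V0D1 fell by 0.96, progranulin (GRN) by 0.77 and PSAP by 0.55 on the log2 scale. LAMP1 (-0.16 ± 0.11, adjusted p = 0.23) and NPC2 (0.07 ± 0.13, adjusted p = 0.703) did not pass. GPNMB, a glycoprotein of lipid-laden macrophages, rose (0.98 ± 0.18, adjusted p = 0.00015).

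**Figure D3:**
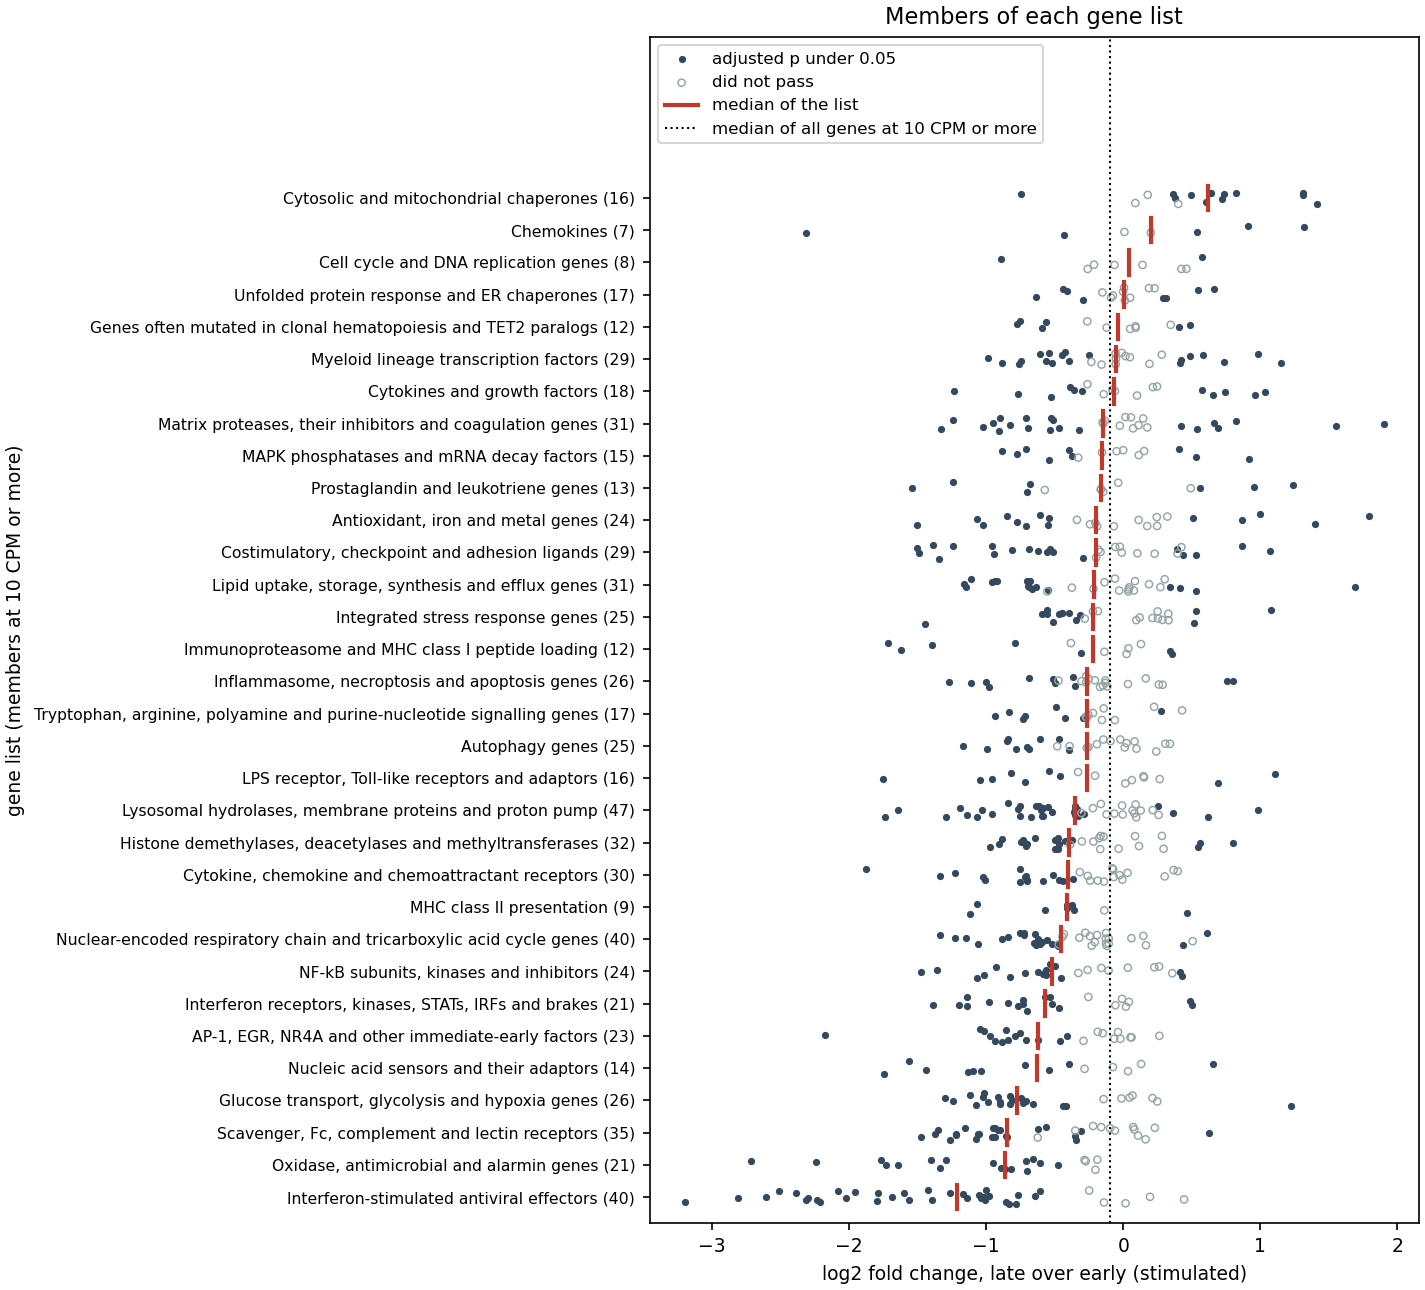
Log2 fold change (x axis) of each well-expressed member of the gene lists (rows, with the number of members), filled where the adjusted p was under 0.05, with a red bar at the list's median and a dotted line at the median of all genes at 10 CPM or more, -0.10. Interferon-stimulated effectors have the lowest median, -1.22, and chaperones the highest, 0.62.

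Of 13 well-expressed prostaglandin and leukotriene genes 3 were higher and 4 lower (median -0.16), against 16.3% and 31% of all genes at that level. PTGS2, the inducible cyclooxygenase, was at 3546, 6236 and 6155 CPM early and 11096, 9731 and 10025 CPM late. Every late library lay above every early one, and Early ACT 1 was well below the other early libraries (log2 0.95 ± 0.15, adjusted p = 1.76e-05). PLA2G4A, the phospholipase that frees arachidonic acid, rose by 1.24 ± 0.25 (adjusted p = 0.0004). ALOX5, the first enzyme of leukotriene synthesis, was at 68.9, 42.3 and 44.3 CPM early and 18.4, 14.1 and 20.1 CPM late (log2 -1.54 ± 0.19, adjusted p = 7.04e-07), and its partner ALOX5AP fell by 1.24. Among lipid genes the sterol factor SREBF1 fell by 1.11 on the log2 scale, the cholesterol exporter ABCA1 was at 0.04 ± 0.12 (adjusted p = 0.839) and APOE, low at 4.24 to 4.51 CPM early and 9.502 to 17.2 CPM late, rose (1.69 ± 0.29, adjusted p = 8.31e-05).

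Matrix and coagulation genes were higher in 7 and lower in 14 of 31 members (median -0.15). Among them the metalloproteinase MMP10 was at 514, 559 and 584 CPM early and 939, 876 and 863 CPM late (log2 0.69 ± 0.11, adjusted p = 1.59e-05). MMP1 rose by 0.42 ± 0.11 (adjusted p = 0.003) and MMP12, the macrophage elastase, from 5.59 to 7.41 CPM early to 18.1 to 18.9 CPM late (1.55 ± 0.20, adjusted p = 1.69e-06). PLAUR, the urokinase receptor, was at 1736, 1182 and 1199 CPM early and 738, 716 and 749 CPM late (log2 -0.90 ± 0.13, adjusted p = 1.13e-05). The proteoglycan VCAN fell by 0.91, the anticoagulant THBD by 0.95 and TIMP1, an inhibitor of metalloproteinases, by 0.54 on the log2 scale. SERPINB2, an inhibitor of plasminogen activators, was at 25138, 26852 and 27649 CPM early and 25253, 22987 and 23529 CPM late (-0.15 ± 0.10, adjusted p = 0.221), and it passed without Early ACT 1 (-0.20, adjusted p = 0.0105). SPP1, the osteopontin gene, rose from 2.72 to 4.45 CPM early to 10.8 to 13.5 CPM late (1.90 ± 0.28, adjusted p = 1.25e-05).

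Outside the lists, the steepest rises of named genes at 10 CPM or more included genes of low level. MLC1, a membrane protein of glial cells, went from 1.73, 1.52 and 2.13 to 8.33, 11.6 and 13.2 CPM (log2 2.60 ± 0.31, adjusted p = 5.76e-07), and GATM, the first enzyme of creatine synthesis, rose by 2.22. RNF144A, a ubiquitin ligase, reached a higher level, at 39.8, 45.9 and 43.5 CPM early and 197, 188 and 184 CPM late (log2 2.13 ± 0.14, adjusted p = 3.49e-11). CYP1B1, a cytochrome P450 of the aryl hydrocarbon response, was at 340, 363 and 362 CPM early and 942, 960 and 988 CPM late, with small spread in both groups (log2 1.44 ± 0.11, adjusted p = 6.7e-10). By difference in level the largest falls included ACTB, the cytoskeletal actin, from 6775, 5696 and 5762 to 2912, 2936 and 2988 CPM (log2 -1.04 ± 0.10, adjusted p = 3.77e-08). The filamin gene FLNA fell by 0.64 (adjusted p = 0.00216, and 0.109 without Early ACT 1) and THBS1 by 0.53 on the log2 scale, and in both Early ACT 1 was the highest library. Rises by level included SDCBP, the adaptor syntenin, at 1496, 3069 and 3149 CPM early and 4170, 3691 and 3687 CPM late (log2 0.58 ± 0.17, adjusted p = 0.00982), and EREG, a ligand of the EGF receptor named only in the authors' table, at 2812, 6109 and 6550 CPM early and 9474, 8109 and 9010 CPM late (log2 0.78 ± 0.24, adjusted p = 0.0183). In both, Early ACT 1 was far below the other early libraries, and without it EREG did not pass (0.47, adjusted p = 0.144). SDCBP did not pass without Late ACT 1 (adjusted p = 0.051).

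TET2 was expressed in every stimulated library, at 285, 343 and 337 CPM early and 441, 416 and 420 CPM late. All late libraries lay above all early ones, and the log2 fold change was 0.40 ± 0.11 (adjusted p = 0.0044). These counts do not show whether a transcript carries an edit. By the authors' deposited table TET2 spans bases 105087660 to 105219996 of chromosome 5 (build Mmul_8.0.1). Its paralog TET3 was at 0.05 ± 0.15 (adjusted p = 0.827), and ASXL1, often mutated in clonal hematopoiesis, at 0.09 ± 0.13 (adjusted p = 0.613). Of 12 well-expressed genes often mutated in that condition or paralogs of TET2, 2 were higher and 4 lower (median -0.04). These counts were close to the 16.3% higher and 31% lower of all genes at that level. Of 32 histone demethylases, deacetylases and methyltransferases 17 were lower and 3 higher (median -0.40). With upper-quartile factors 12 were lower and 4 higher. KDM7A fell by 0.89, while the deacetylases SIRT1 and HDAC2 rose by 0.80 ± 0.17 (adjusted p = 0.000572) and 0.55 ± 0.15 (adjusted p = 0.00566). Of 30 cell cycle genes tested at any level 15 were higher and 1 lower (median 1.00), against 19.1% higher and 19.7% lower of all tested genes. Most lay under 10 CPM, and of all genes between 1 and 10 CPM 22.8% were higher and 5.59% lower (median 0.30). The part of the larger low-count signal of late libraries in this count was not tested. At 10 CPM or more there were 8 cell cycle genes, 1 higher and 1 lower. PCNA, the sliding clamp of replication, was the one that rose (0.57 ± 0.15, adjusted p = 0.00412).

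The same contrast in unstimulated cells shares no library with the stimulated one. There 3084 of the 6587 genes passed (46.8%), 1207 higher (18.3%) and 1877 lower (28.5%). Of the 1075 genes that rose in stimulated cells 710 rose in unstimulated cells too, 2 fell and 363 did not pass, and of the 2041 that fell 1524 fell, 25 rose and 492 did not pass. Across these genes the log2 fold changes had a Pearson correlation of 0.84, a description only, since genes are not independent. The difference between the changes was tested by an interaction term, which passed in 154 of the 6587 genes (2.34%), 14 with a higher and 140 (2.13%) with a lower change in stimulated cells.

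IL6 rose in unstimulated cells, from 33.95, 29.1 and 30.7 to 81.0, 77.3 and 83.7 CPM, and fell in stimulated ones, and the changes differed by -2.14 on the log2 scale (interaction adjusted p = 9.16e-09). IL1B went from 12353, 12654 and 13671 to 40078, 36120 and 45956 CPM in unstimulated cells, and the difference was -1.65 (interaction adjusted p = 9.7e-08). In late libraries IL1B was thus at 36120 CPM or more with or without the agents. For TNF the difference was -1.67 (interaction adjusted p = 1.12e-06), for CSF3 -2.13 (9.16e-09), for PLAUR -1.67 (2.02e-06), for NLRP3 -1.46 (5.66e-07), for CCL2 -1.45 (2.21e-05), for PTGS2 -1.41 (0.000132) and for MMP10 -1.31 (2.25e-06). Of 28 tested cytokines and growth factors 10 passed in the interaction, and of 30 tested stress response genes 14 did, against 1.41% of all tested genes. Among the latter CHAC1 had a difference of -1.195 (0.000176), SESN2 of -0.97 (0.00108) and ASNS of -1.31 (0.00504).

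Most interferon-stimulated effectors were lower late in both conditions. Of 47 tested effectors 37 were lower and 0 higher late in stimulated cells. In unstimulated cells 35 were lower and 2 higher, where 19.8% of all tested genes were lower. In the interaction 7 of the 47 passed, counted in either direction, against 1.41% of all tested genes. Without stimulation MX1 was at 248, 239 and 252 CPM early and 76.7, 85.5 and 84.2 CPM late, and the interaction was -1.02 (adjusted p = 0.000196). OAS2 (-0.98, adjusted p = 0.00887), PML (-0.97, adjusted p = 0.00376) and IFIT5 (-0.88, adjusted p = 0.0369) were others. The interaction of OAS2 did not pass without Late ACT 2 (adjusted p = 0.0541), nor that of IFIT5 without Early ACT 2 or 3 or Late ACT 2 or 3 (adjusted p = 0.0854, 0.072, 0.158 and 0.114). S100A9 (-0.18, adjusted p = 0.821), FOS (-0.17, adjusted p = 0.742) and HSPD1 (0.13, adjusted p = 0.869) did not pass, so no difference between stimulated and unstimulated cells was detected for them. TXNIP, a brake on glucose uptake, had a smaller fall in stimulated cells, from 87.2, 94.1 and 95.4 to 64.6, 60.8 and 55.2 CPM, than in unstimulated ones, from 390.5, 391.8 and 437.4 to 78.2, 82.1 and 78.6 CPM (interaction 1.73, adjusted p = 9.7e-08).

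**Figure D4:**
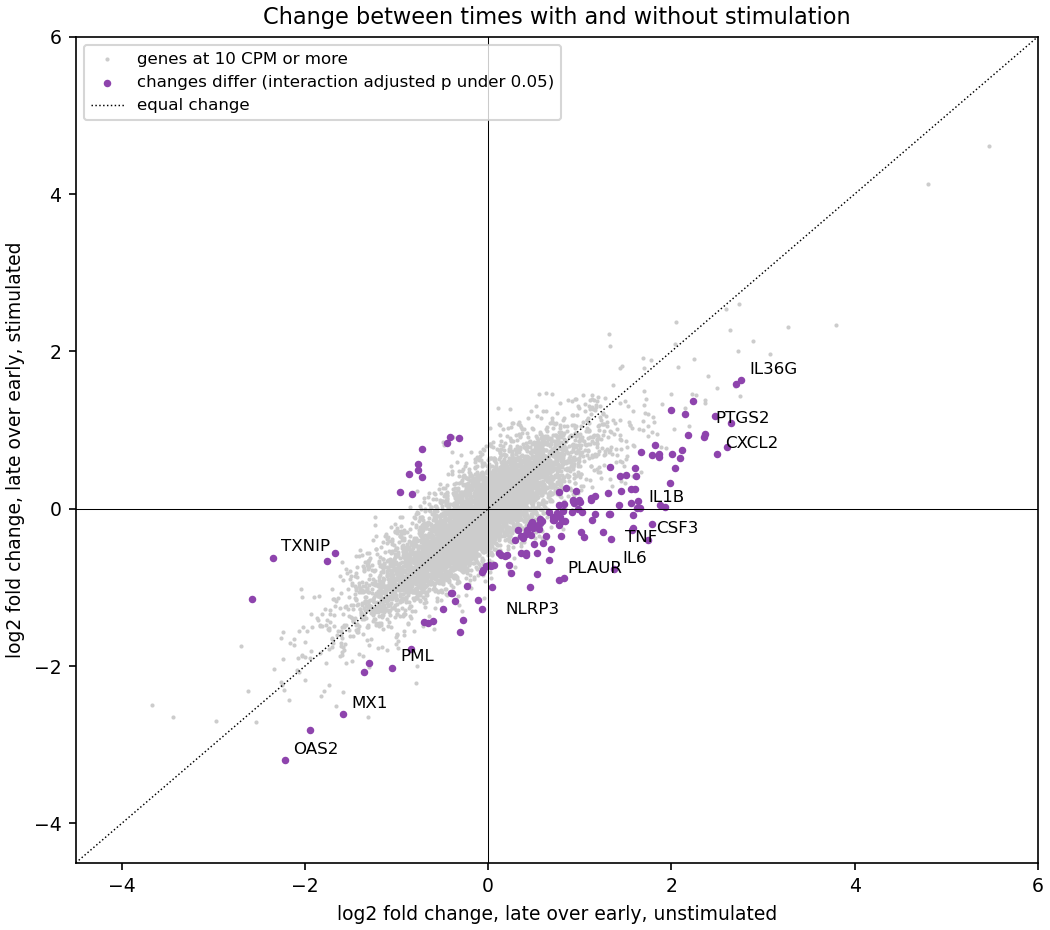
Log2 fold change of late over early in stimulated (y axis) against unstimulated libraries (x axis), 1 point a gene at 10 CPM or more, with genes past the interaction test in purple and a dotted line of equal change. Most purple points lie below the line, with IL6 at -0.77 against 1.37 and MX1 at -2.61 against -1.58.

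Leaving out Early ACT 1 changed which genes passed more than how many. At 10 CPM or more 3012 genes passed without it and 3116 with it, 2720 of them shared, and none changed direction. Among 6151 genes on which Early ACT 2 and 3 agreed within 0.5 log2, Early ACT 1 was lower by more than 1 in 222 and higher in 14. PDS5B, a cohesin regulator, was at 3.95 CPM there against 16.9 and 19.7 CPM, and PIH1D1 at 38.5 against 18.7 and 16.2 CPM. The interferon effectors were lower in 36 of 40 members without this library, the chaperones higher in 12 of 16 and the cytokines higher in 4 and lower in 7 of 18. The interaction moved most, from 167 to 540 genes over the whole table.

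**Figure D5:**
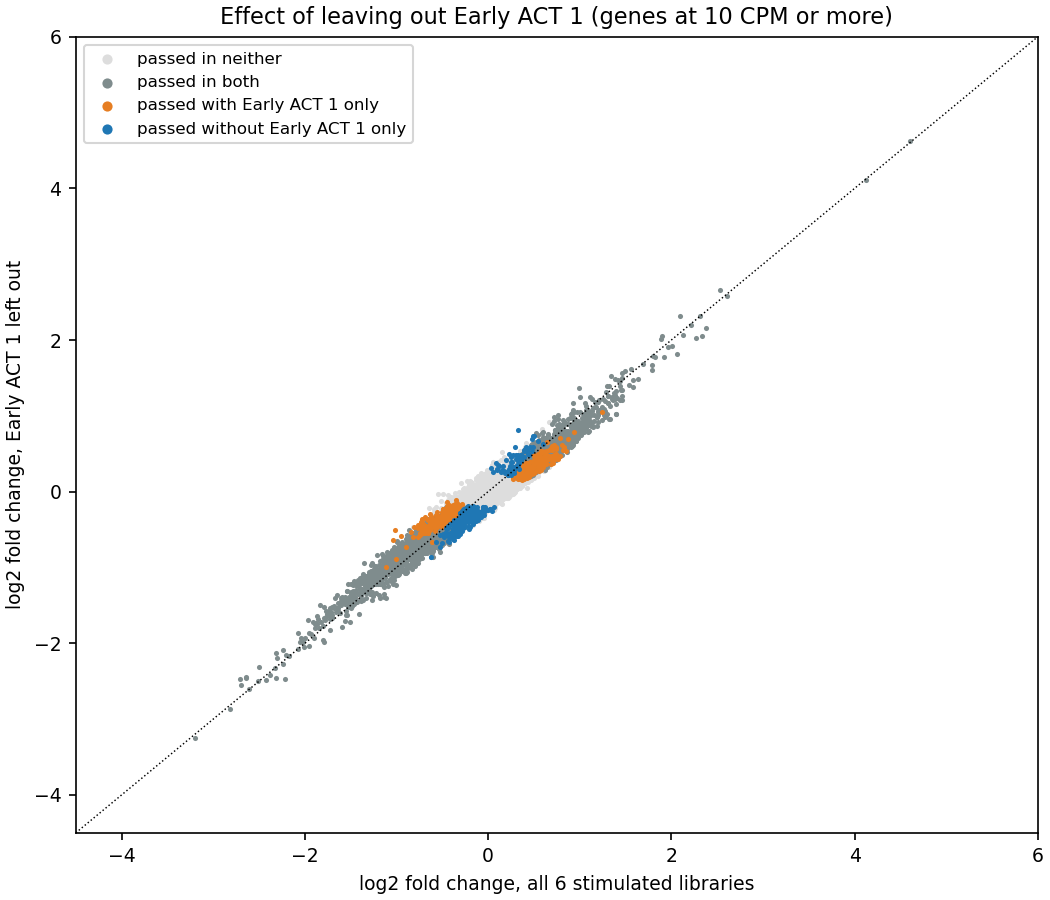
Log2 fold change of late over early stimulated libraries without Early ACT 1 (y axis) against the value with all 6 libraries (x axis), for genes at 10 CPM or more, coloured by which fit they passed. The points follow the dotted line of equality, and genes passing in 1 fit only lie nearer 0 than most genes passing in both.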

How the data were processed

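RNA of 12 macrophage libraries was amplified from small inputs by a SMART-Seq v4 and Nextera XT protocol, per the labels' protocols. This protocol does not mark strand, so antisense reads cannot be told apart. The authors deposited 1 table of whole-number read counts per Ensembl gene, which carries all results here. Their tables of comparisons hold log2 fold changes, normalized mean signal, test scores and p-values, per the file headers, and served only for gene names, coordinates on Mmul_8.0.1 and a check: of 3261 genes of their stimulated table tested here all had the same direction. Of their tools the submitters' processing notes name bcl2fastq, while the aligner and counter were not given in the sources used here.

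Of 32386 rows 15656 had a usable symbol, and rows without one held 11.2% of counts. Counts were tested with edgeR 4.0.16 in R 4.3.3 (quasi-likelihood test, TMM factors, 1 fit over the 4 groups, Benjamini-Hochberg adjustment over 11826 genes), and CPM were scaled by TMM. Each library's CPM therefore match the tested fold changes. Fold changes carry SE, and intervals are at 95%. Genes were named as the most changed at 10 CPM or more without overlap, up to 4 of each list by p with members whose role is described, those with the smallest interaction p, those with the largest gap in Early ACT 1, and those with the largest difference in level. The members and lists were chosen with earlier results of these data known.

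Same-numbered early and late stimulated libraries had correlations of their deviations of -0.0855, -0.034 and -0.0259, against -0.0539 to 0.0759 for other pairs. No sign of pairing by number was seen. The check cannot exclude pairing, since deviations were taken from means of 3 libraries and Early ACT 1 stood apart. In simulated data for this contrast (11256 genes, 200 changed) the test recovered 97% of genes changed by a fold of 2, and called 17 unchanged genes. The measured libraries gave a far larger share of calls, 4589 of 11826 genes (38.8%). Recovery and false calls at such a share were not tested. Alternatives were other scalings, filters, DESeq2 1.42.0, a replicate block, the 6 stimulated libraries alone, and each library left out. Promoter sequences were not used here. Some genes are not reported here.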

Additional observations from a re-analysis of the deposited data

Results flagged for a closer look

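For 34 genes named in the report the change from early to late differed between stimulated and unstimulated cells by the interaction term (edgeR, adjusted p under 0.05 over the 11826 genes tested). Each value below is the log2 fold change in stimulated cells minus that in unstimulated cells. In 33 of the 34 it was negative. Of all 154 genes at 10 CPM or more that passed the interaction 140 had a negative value, so this direction is not particular to the named genes. Some of the 34 were named for their small interaction p. Cytokines and chemokines had -2.14 for IL6, -2.13 for CSF3, -1.67 for TNF, -1.65 for IL1B, -1.53 for IL1A, -1.44 for LIF, -1.45 for CCL2, -1.61 for CCL20, -1.99 for CXCL1, -1.80 for CXCL2 and -1.66 for CXCL3. IL6 and CSF3 were lower in every late than in every early stimulated library and higher in every late than in every early unstimulated one. Regulators of NF-kB and AP-1 had -0.92 for TNFAIP3, -0.79 for NFKBIA, -0.74 for FOSL1 and -0.70 for MAFF. The inflammasome sensor NLRP3 had -1.46, the cyclooxygenase PTGS2 -1.41 and the itaconate synthase ACOD1 -0.79. Matrix and protease genes had -1.67 for PLAUR, -1.31 for MMP10, -1.02 for MMP1 and -0.99 for SERPINB2. Stress response genes had -1.31 for ASNS, -1.195 for CHAC1, -0.97 for SESN2, -0.79 for TRIB3 and -0.68 for PPP1R15A. Interferon-induced genes had -1.02 for MX1, -0.98 for OAS2, -0.97 for PML, -0.88 for IFIT5, -0.74 for DHX58 and -0.73 for MX2. TXNIP alone had a positive value, 1.73.

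Of the 34 values 28 stayed past the threshold under all 13 alternatives run for the interaction. The other 6 were those of OAS2, IFIT5, MX2, DHX58, TRIB3 and PPP1R15A. That of OAS2 did not pass without Late ACT 2 (adjusted p = 0.0541), and that of IFIT5 without Early ACT 2 or 3 or Late ACT 2 or 3 (0.0854, 0.072, 0.158 and 0.114). That of MX2 did not pass without Late ACT 1 or 2 (adjusted p = 0.0594 and 0.0569), that of DHX58 without Late ACT 1 or 2 (0.12 and 0.0928), that of PPP1R15A without Late ACT 1 (0.0536), and that of TRIB3 without Early ACT 2 or Late ACT 1 or 3 (0.0513, 0.138 and 0.114). With a block on the replicate number those of DHX58, IFIT5 and TRIB3 did not pass (0.0652, 0.0617 and 0.0681), nor did that of TRIB3 with TMM factors from genes at 10 CPM or more (0.0529).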

How the results depend on the processing

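Over 14 alternatives the number of genes passing in stimulated cells stayed within 1.5 times 4589, and at 10 CPM or more within 1.5 times 3116, with 2432 (without Late ACT 1) to 3140 (without Early ACT 3) when 1 library was left out. No gene called in both fits had opposite signs. The interaction count, 167, was 283 with DESeq2 and 104 to 540 when 1 library was left out, 540 without Early ACT 1, 106 without Late ACT 1 and 104 without Late ACT 3. The cause was not tested. A block on the replicate number, which the labels share between groups, gave 4354 genes in stimulated cells and 114 in the interaction. It left 2976 genes at 10 CPM or more, 2953 of them shared with the unblocked fit. IRF4 and REL did not pass with it (adjusted p = 0.0508 and 0.0533). Of 160 genes named as higher or lower 147 kept their call under every alternative run and 13 lost it under 1 or more, and of 40 named as not passing 13 passed under 1 or more. With upper-quartile factors CASP4, CSF3 and HLA-DRA did not pass (adjusted p = 0.107, 0.0506 and 0.0943) and IL10 passed as higher (0.0478). A fit of the 6 stimulated libraries alone ended the calls of CANX, CASP4, CSF3, CXCL3, HLA-DRA, JAK2, REL and SDCBP (adjusted p from 0.0555 for SDCBP to 0.106 for REL). Of 924 counts of list members under alternatives 803 stayed within 1.5 times, 79 were lower and 42 higher. With 3 libraries a group, small differences may have gone undetected.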
